A study of Mus musculus with 16 samples.

Results

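Sulfonation, the transfer of a sulfuryl group from the donor 3′-phosphoadenosine-5′-phosphosulfate (PAPS), was examined in the mouse dorsal raphe nucleus (DRN) through 4 of the 14504 genes listed in the table of normalized counts. They were *Sult1a1* and *Sult4a1*, the cytosolic sulfotransferases, and *Papss1* and *Papss2*, the enzymes that make PAPS. The genes were named by symbol, and all 4 were found, each under 1 identifier. The set was chosen by the DEX response of *Sult1a1* measured in these same libraries, so the DEX differences of the 4 genes are given as a description, without a test. Comparisons between phenotypes within saline or within DEX, and comparisons of the DEX response between phenotypes, were tested.

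PolyA RNA was sequenced from adult male C57BL/6 mice in 16 libraries of 6 groups. Control mice, housed alone before the experiment, gave 3 libraries after saline and 3 after dexamethasone (DEX), a synthetic agonist of the glucocorticoid receptor. Mice put through 30 days of chronic social stress were divided by their behavior into passive coping (PS, labelled dep1, 2 saline and 3 DEX libraries) and active coping (AS, labelled dep2, 3 saline and 2 DEX libraries). DEX was given at 2 mg/kg, tissue was taken 6 h after injection, and all mice, controls included, received an injection. According to the study's methods, DEX-treated PS and AS samples with low *Tph2* had been left out of the analysis, so *Tph2* levels are not an independent check of those groups. Those methods describe more DRN libraries, after that exclusion, than the 16 examined here. Why the others are absent is not known. The classes PS and AS rest on behavior alone, and the tissue was a punch that holds many cell types. In such bulk RNA, fewer cells of a type and less RNA per cell cannot be told apart.

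Cytosolic sulfotransferases attach sulfonate to small phenols, hormones and neurotransmitters, which as a rule makes them more soluble and less active. Together with methylation, for histamine by *Hnmt*, acetylation by *Aanat* and glucuronidation, this conjugation is a route by which monoamines and many drugs are removed. *Sult1a1* encodes the broad phenol sulfotransferase of the family, while *Sult4a1* encodes a conserved, neuron-enriched relative for which no physiological substrate is established. Each PAPS synthase joins ATP sulfurylase and adenylylsulfate kinase activities in a single protein, and mutation of *Papss2* underlies the brachymorphic mouse. Every sulfotransferase depends on the PAPS that these enzymes provide.

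On the GRCm38 build, *Sult1a1* (ENSMUSG00000030711.16) lies on chromosome 7 from 126672865 to 126676432 on the minus strand, with 1507 exonic bases in 7 merged exons. *Sult4a1* (ENSMUSG00000018865.9) lies on chromosome 15 from 84076097 to 84105754, also on the minus strand, with 2512 exonic bases in 8 merged exons. *Papss1* (ENSMUSG00000028032.13) lies on the plus strand of chromosome 3 from 131564768 to 131643671, with 3053 exonic bases. *Papss2* (ENSMUSG00000024899.7) lies on the plus strand of chromosome 19 from 32595790 to 32667187, with 3721 exonic bases. All 4 are annotated as protein coding.

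The promoter of *Sult1a1* is shown beside those of the PAPS synthases because these genes carried the contrast in DEX difference described below. The sequences are from RefSeq (GRCm38.p6), run 5′ to 3′ along each gene's own strand and cover 250 bases before to 50 bases after an annotated start. Of the 4 genes, 3 matched the promoter table, with 5 starts in all. Capitals mark the 6-base element AGAACA, which forms an arm of the glucocorticoid receptor element, or TGTTCT, the same element on the other strand. The *Papss2* window shown ends before the gene start at 32595790 given above, which is from GENCODE. Its last 50 bases, like those of the second *Papss1* start, were in no GENCODE transcript of the gene. The 3 windows are *Sult1a1* at chr7:126676369-126676668 (minus strand), the first start of *Papss1* at chr3:131564518-131564817 and the first start of *Papss2* at chr19:32595465-32595764 (both plus strand).
Sult1a1: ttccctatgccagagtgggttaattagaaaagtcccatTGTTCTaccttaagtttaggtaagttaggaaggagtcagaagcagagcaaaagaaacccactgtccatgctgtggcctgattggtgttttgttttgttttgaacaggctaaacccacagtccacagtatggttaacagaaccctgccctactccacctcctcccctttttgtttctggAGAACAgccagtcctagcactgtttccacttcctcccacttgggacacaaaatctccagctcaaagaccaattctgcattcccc
Papss1: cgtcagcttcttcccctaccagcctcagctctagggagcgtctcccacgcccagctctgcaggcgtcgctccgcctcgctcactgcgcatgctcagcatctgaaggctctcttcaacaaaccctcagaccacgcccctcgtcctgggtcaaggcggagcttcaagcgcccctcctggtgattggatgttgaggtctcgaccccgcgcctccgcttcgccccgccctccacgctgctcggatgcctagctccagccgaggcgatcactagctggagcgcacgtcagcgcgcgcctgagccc
Papss2: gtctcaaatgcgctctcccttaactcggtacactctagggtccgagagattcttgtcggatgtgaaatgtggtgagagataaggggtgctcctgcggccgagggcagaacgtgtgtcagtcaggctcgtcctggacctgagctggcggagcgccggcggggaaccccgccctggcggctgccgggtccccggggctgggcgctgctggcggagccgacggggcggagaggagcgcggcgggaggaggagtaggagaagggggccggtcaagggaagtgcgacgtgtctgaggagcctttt

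The *Sult1a1* window held 2 copies of the element, beginning at -212 and -34 from the start, on opposite strands. At least 1 copy was present in 19.0% of the 32851 promoters of this length and at least 2 copies in 2.54%. The palindrome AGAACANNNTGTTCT was in none of the member windows, and 0.00913% of all promoters (3 of 32851) held it. No window of *Papss1* or *Papss2*, at any of their 4 starts, held the 6-base element, which says only that these letters are not in those bases. The windows also differed in base composition. The *Sult1a1* window had a GC content of 46.3% and 0 CpG dinucleotides, against 66.3% and 27 in each of the first-start windows of *Papss1* and *Papss2* and a median of 52.7% and 7 over all promoters. The second-start windows were nearer to *Sult1a1*, with 47.3% and 6 for *Papss1* and 44.3% and 1 for *Papss2*. The difference in composition therefore held for the first starts only.

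The libraries held 38207157 to 62447298 reads in the listed genes. *Fkbp5*, a glucocorticoid receptor chaperone gene that DEX induces, lay between 1241 and 1536 normalized counts in the 8 saline libraries and between 5578 and 6958 in the 8 DEX libraries, so the treatment labels and the level of this gene matched in all 16. All 10 serotonin neuron markers examined were listed, with a summed level of 305571 to 455740 normalized counts, so the defining markers of the raphe were present in every library. *Tph2*, the enzyme of serotonin synthesis in neurons, ranged from 91764 to 182191. The AS DEX libraries dep2_dex_42 (91764) and dep2_dex_38 (100562) were the lowest of the 16 in *Tph2*, and AS DEX lay below control DEX in this way for 14.9% of genes and below PS DEX for 9.57%. The part of this in the *Sult1a1* values of AS mice was not tested.

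Levels of the 4 genes were compared per kilobase of exon, as normalized counts per kb. *Sult4a1* was the most abundant at 8099 per kb over the 16 libraries, higher than 98.8% of the 14493 genes with a known length. *Papss1* followed at 1084 per kb, higher than 85.9% of genes. *Sult1a1* (188 per kb) and *Papss2* (130 per kb) lay below the middle of the distribution, above 40.6% and 30.7% of genes. *Sult2b1*, a cholesterol and steroid sulfotransferase and the remaining cytosolic sulfotransferase in the table, was at 40.8 per kb. These were the 3 of 21 listed cytosolic sulfotransferase symbols that had a row in the table.

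The order of the lowest members differed between treatments. In saline libraries *Sult1a1* lay between 46.6 and 125 per kb and *Papss2* between 73.8 and 179 per kb, with overlapping ranges, and *Sult1a1* exceeded *Papss2* in 1 of 8 libraries. In DEX libraries *Sult1a1* lay between 263 and 349 per kb, above every *Papss2* value (93.2 to 150 per kb), and exceeded it in 8 of 8. *Sult4a1* and *Papss1* kept the first and second places, since their ranges (6288 to 10830 and 968 to 1357 per kb) overlapped with no other gene of the 5. As a share of the 3 sulfotransferases per kb, *Sult1a1* made up 0.426% to 1.24% in saline libraries and 3.32% to 4.48% in DEX libraries, so *Sult4a1* remained by far the predominant transcript of the family under both treatments.

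**Figure D1:**
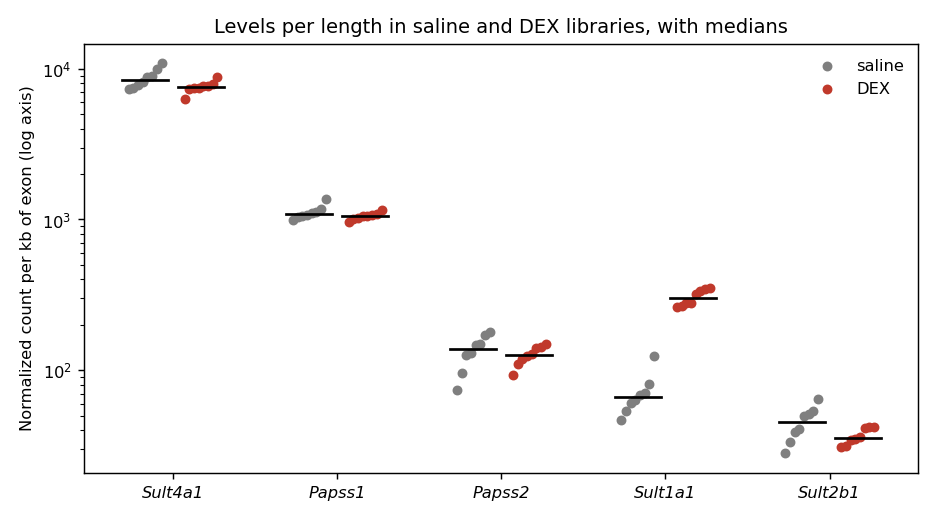
Normalized counts per kb of exon on a log axis for 5 genes, with 1 point per library (grey, 8 saline; red, 8 DEX) and a line at the median. *Sult1a1* has its saline points at 46.6 to 125 and its DEX points at 263 to 349, while the saline and DEX points of the other genes overlap.

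*Sult1a1* was higher after DEX in all 3 phenotypes. In control mice the saline libraries con_sal_102, con_sal_104 and con_sal_114 held 81.2, 70.3 and 107 normalized counts, and the DEX libraries con_dex_101, con_dex_116 and con_dex_122 held 519, 504 and 396. In PS mice the saline libraries dep1_sal_62 and dep1_sal_68 held 96.4 and 103.8, and the DEX libraries dep1_dex_34, dep1_dex_6 and dep1_dex_64 held 526, 418 and 403. In AS mice the saline libraries dep2_sal_14, dep2_sal_40 and dep2_sal_8 held 123, 189 and 91.6, and the DEX libraries dep2_dex_38 and dep2_dex_42 held 480 and 424. Every DEX library therefore lay above every saline library, the nearest values being 396 and 189. Of all genes, 1.37% showed such a separation of the 8 DEX from the 8 saline libraries in the same direction. Within phenotypes, all DEX libraries exceeded all saline libraries for 8.51% of genes in controls, 11.2% in PS and 15.1% in AS. Because *Sult1a1* was chosen for this response, nothing is read from these shares.

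In controls the group mean of *Sult1a1* was 86.1 ± 18.8 (SD, n = 3) with saline and 473 ± 67.0 (SD, n = 3) with DEX, a log2 difference of 2.46 (SE 0.25). In PS mice the means were 100.1 ± 5.23 (SD, n = 2) and 449 ± 67.2 (SD, n = 3), a log2 difference of 2.14 (SE 0.27). In AS mice they were 134 ± 49.5 (SD, n = 3) and 452 ± 39.6 (SD, n = 2), a log2 difference of 1.80 (SE 0.27). On the log2 scale these correspond to 5.48-fold, 4.42-fold and 3.49-fold higher levels. The DEX difference averaged over the phenotypes was 2.13 (SE 0.15), or 4.39-fold, and it ranked 13 of 14504 genes from the highest. Values were 69 to 206 reads per saline library and 381 to 546 per DEX library, and in saline libraries *Sult1a1* was measured on the fewest reads of the 4 genes.

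By the threshold of an adjusted p under 0.1 in limma, 1 of the 4 genes, *Sult1a1*, was called in each DEX comparison. The share of all genes called was 1.26% for controls, 0.703% for PS mice, 0.689% for AS mice and 4.31% for the averaged DEX comparison. Since these contrasts chose the gene, the count supports nothing. In AS mice the call was lost when dep2_dex_38 (log2 difference 1.71) or dep2_dex_42 (1.89) was left out, which leaves 1 AS DEX library, and when only the AS libraries entered the fit (1.80).

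**Figure D2:**
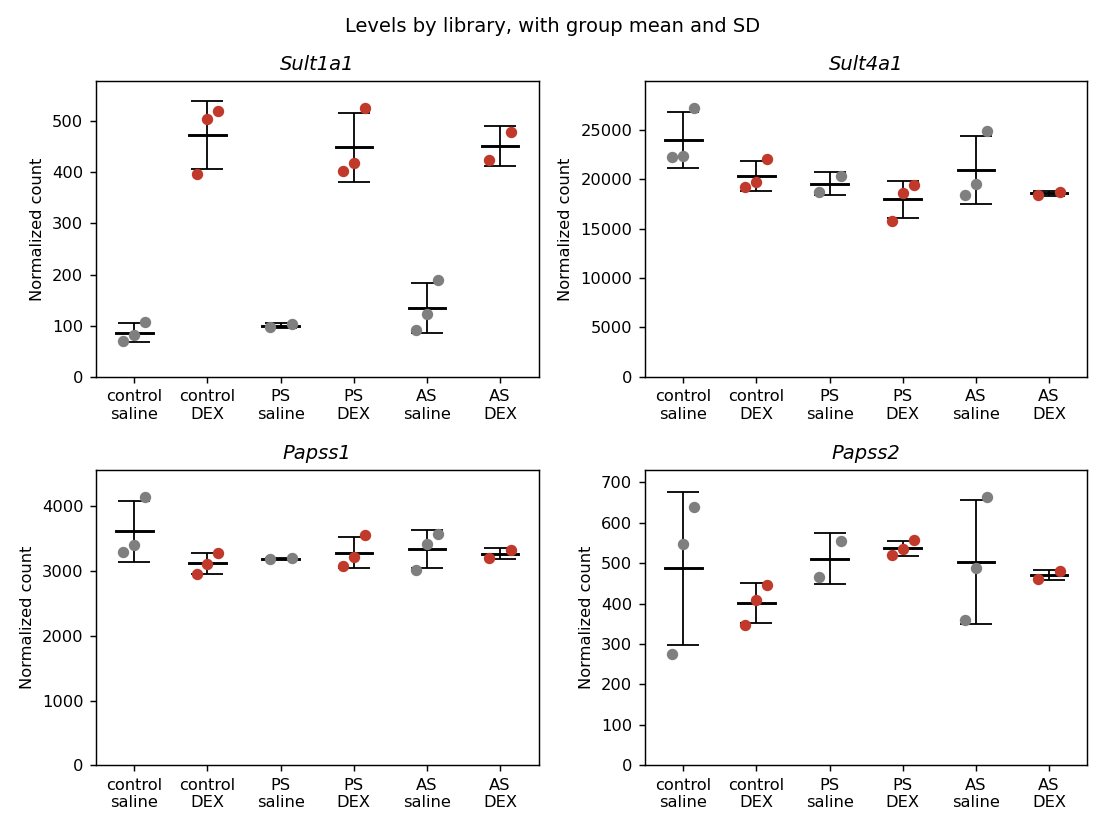
Normalized counts of the 4 genes in each of the 16 libraries (points; grey, saline; red, DEX), by group, with the group mean (line) and SD (bars) on axes that start at 0. The red points of *Sult1a1* lie at 396 to 526 and its grey points at 70.3 to 189, and for the other 3 genes the colors overlap.

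*Sult1a1* shares 61 exonic bases with *Sgf29*, a gene of the SAGA complex on the opposite strand. The study's methods report high strand specificity for each sample, but the use of strand in counting is not stated. *Sgf29* lay between 354 and 508 normalized counts in saline libraries and between 377 and 429 in DEX libraries, and its averaged DEX log2 difference was -0.07 (95% interval -0.24 to 0.11). Whether reads were shared between these genes was not tested.

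With saline, the *Sult1a1* means were in the order AS, PS, control. The AS saline mean exceeded the control saline mean by 0.59 on the log2 scale (SE 0.25, 95% interval 0.07 to 1.12), and the libraries overlapped, since dep2_sal_8 (91.6) lay below con_sal_114 (107). This difference was not called (limma, adjusted p = 0.998, and 0.691 to 1 over the alternatives). In this comparison limma and edgeR called 0 of 14504 genes (0%), while DESeq2 called 11, of which *Sult1a1* was not one. The *Sult1a1* difference was 0.32 without dep2_sal_40, the highest saline library, and 0.84 without dep2_sal_8. dep2_sal_40 also had the highest summed level of 16 for astrocyte markers (47829 normalized counts), mural and fibroblast markers (7129) and microglia markers (11627). It ranked 2 of 16 for serotonin neuron markers (455398) and was the highest in *Tph2* (182191). The part of these marker levels in its *Sult1a1* level was not tested. The PS saline mean differed from control by 0.24 (95% interval -0.35 to 0.82, adjusted p = 0.724) and the AS saline mean from PS by 0.36 (95% interval -0.23 to 0.95, adjusted p = 0.728). The former was 0.10 without con_sal_104 and 0.40 without con_sal_114, and the latter was 0.085 without dep2_sal_40 and 0.60 without dep2_sal_8.

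After DEX the 3 phenotypes lay close together in *Sult1a1*. PS differed from control by -0.08 (95% interval -0.60 to 0.45), AS from control by -0.06 (95% interval -0.65 to 0.53) and AS from PS by 0.02 (95% interval -0.57 to 0.61), with limma adjusted p-values of 0.9999, 0.995 and 1. Over all genes limma called 0% between PS and control, 0.00689% (1 gene, which was not a member) between AS and control and 0% between AS and PS. In the same order edgeR called 0 genes in each and DESeq2 called 0, 12 and 5 of 14504, with no member among them. The bounds of the 3 intervals ran from -0.65 to 0.61.

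The size of the DEX response of *Sult1a1* was in the order control, PS, AS, and no pair of phenotypes, control and AS included, differed beyond the spread. The response in PS minus that in controls was -0.31 (95% interval -1.10 to 0.48), AS minus controls was -0.65 (95% interval -1.44 to 0.14) and AS minus PS was -0.34 (95% interval -1.18 to 0.49). The limma adjusted p-values were 0.9996, 0.941 and 0.875, and limma called 0% of all genes in each of these 3 comparisons. In the same order edgeR called 0 genes in each, and DESeq2 called 0, 0 and 1, not a member. Single libraries moved the *Sult1a1* differences. PS minus controls was -0.18 without con_sal_104 and -0.48 without con_sal_114. Without dep2_sal_40, AS minus controls was -0.38 and AS minus PS was -0.068, and without dep2_sal_8 they were -0.90 and -0.58.

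**Figure D3:**
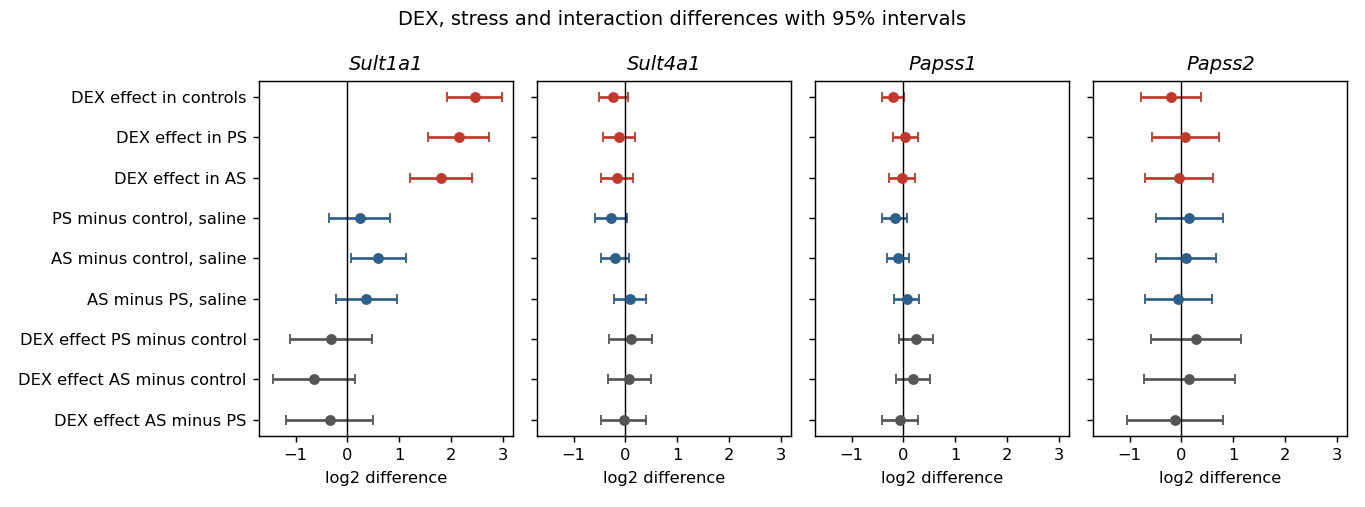
Log2 differences (points) with 95% intervals (bars) for the 4 genes, with DEX minus saline within each phenotype in red, saline comparisons between phenotypes in blue and differences between DEX responses in grey. The red points of *Sult1a1*, the gene chosen for its DEX response, lie at 1.80 to 2.46 and those of *Sult4a1*, *Papss1* and *Papss2* at -0.23 to 0.08.

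*Sult4a1*, the abundant brain member of the family, was measured on 14949 to 27148 reads per library. Control saline libraries held 22384, 27206 and 22206 normalized counts and control DEX libraries held 19739, 22058 and 19165. The control DEX libraries were all below the control saline libraries, as for 7.43% of genes. PS saline libraries held 18741 and 20365 and PS DEX libraries held 18592, 19434 and 15795, while AS saline libraries held 18358, 24847 and 19543 and AS DEX libraries held 18392 and 18696. In both stressed phenotypes saline and DEX values overlapped.

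The DEX log2 difference of *Sult4a1* was -0.23 (SE 0.13) in controls, -0.13 (SE 0.14) in PS and -0.16 (SE 0.14) in AS. Averaged over phenotypes it was -0.17 (95% interval -0.35 to -0.00200), which is 0.886 times the saline level, and it was not called. The PS saline libraries lay below all control saline libraries, as for 14.2% of genes, with a difference of -0.29 (95% interval -0.59 to 0.02, limma adjusted p = 0.571). The AS saline libraries overlapped with the control saline libraries and differed by -0.20 (95% interval -0.48 to 0.08, adjusted p = 0.998). After DEX the AS libraries were below all control libraries, as for 14.9% of genes, with a difference of -0.13 (95% interval -0.44 to 0.18, adjusted p = 0.990).

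*Papss1*, the more abundant PAPS synthase, varied least of the 4 genes, with a coefficient of variation of 8.54% over all libraries. Control saline libraries held 3288, 4144 and 3394 normalized counts and control DEX libraries held 2954, 3112 and 3275. The latter were all lower, as for 7.43% of genes, with a log2 difference of -0.21 (SE 0.10) that was -0.10 without con_sal_104. In PS mice the saline libraries held 3180 and 3199 and the DEX libraries 3551, 3215 and 3079, and in AS mice the saline libraries held 3573, 3018 and 3420 and the DEX libraries 3327 and 3201. There the groups overlapped, with DEX log2 differences of 0.04 (SE 0.11) in PS and -0.03 (SE 0.11) in AS.

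The averaged DEX difference of *Papss1* was -0.07 (95% interval -0.20 to 0.07). PS saline libraries lay below all control saline libraries, as for 14.2% of genes, with a difference of -0.17 (95% interval -0.41 to 0.07, limma adjusted p = 0.579) that was -0.067 without con_sal_104. The difference between the PS and control DEX responses was 0.24 (95% interval -0.08 to 0.57, adjusted p = 0.9996).

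*Papss2*, the less abundant PAPS synthase, had the largest standard errors of the 4 genes. Control saline libraries held 547, 638 and 275 normalized counts, with con_sal_114 the lowest and con_sal_104 the highest. Control DEX libraries held 409, 347 and 445. PS saline libraries held 466 and 556 and PS DEX libraries 556, 519 and 535, and AS saline libraries held 664, 359 and 487 and AS DEX libraries 480 and 461. Saline and DEX values overlapped in all 3 phenotypes. The DEX log2 differences were -0.20 (SE 0.27) in controls, 0.08 (SE 0.30) in PS and -0.05 (SE 0.30) in AS, and the average was -0.06 (95% interval -0.42 to 0.30).

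After DEX the *Papss2* levels of the 3 phenotypes did not overlap. All PS DEX libraries (519 to 556) lay above all control DEX libraries (347 to 445), as for 3.96% of genes, with a difference of 0.43 (95% interval -0.15 to 1.01, limma adjusted p = 0.9999). The AS DEX libraries (461 and 480) lay between them, above control as for 15.4% of genes and below PS as for 9.57% of genes. AS differed from control by 0.24 (95% interval -0.41 to 0.89, adjusted p = 0.990) and from PS by -0.19 (95% interval -0.84 to 0.46, adjusted p = 1). The saline groups overlapped, with differences of 0.15 for PS minus control and 0.09 for AS minus control (adjusted p = 0.844 and 0.998). Per kb, *Papss1* exceeded *Papss2* in every library, by 6.56 to 15.1 times in saline libraries and 7.02 to 10.9 times in DEX libraries.

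Across the 9 comparisons between phenotypes or between DEX responses, 0 of the 4 genes was called by limma, edgeR or DESeq2. Of all 14504 genes, limma called 1 between AS and control after DEX and 0 in every other comparison. edgeR called 0 in each, and DESeq2 called 0 to 12. So few calls mean that the count says little about the 4 genes. At an unadjusted limma p under 0.05 there was 1 of the 4, *Sult1a1* in AS against control saline, where 2.39% of all genes had such a p.

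The genes whose levels followed *Sult1a1* most closely over the 16 libraries were, among 12863 genes with a mean of at least 100 normalized counts, *Sgk3* (Pearson r = 0.98), *Insl6* (0.97), *Sgk1* (0.96), *Gm19439* (0.96) and *Fkbp5* (0.96). *Sgk1* and *Sgk3* encode serum and glucocorticoid regulated kinases. These correlations are on log2(normalized count + 1) and all points share the split into 8 saline and 8 DEX libraries. After each group's mean was subtracted, the closest genes were *Ciao2a* (0.94), *Zfp229* (0.93), *Srek1ip1* (0.93), *Dynlt1-ps1* (0.92) and *Cmc1* (0.92). None of the first 5 was among the second 5.

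For *Sult4a1* the closest genes over the 16 libraries were *Rab3a* (0.97), a GTPase of synaptic vesicles, *Abhd12* (0.97) and *Kars* (0.96), and after subtraction of group means *Stip1* (0.96), *Abhd12* (0.96) and *Ppil1* (0.96). *Papss1* was closest to *Cnpy3* (0.88), *Keap1* (0.87) and *Mgat4b* (0.85), and after subtraction to *2810004N23Rik* (0.89), *Pygb* (0.89) and *Jade1* (0.88). *Papss2* was closest to *Arhgef10l* (0.92), *Cenpb* (0.90) and *mt-Nd2* (0.89), and after subtraction to *Ranbp3* (0.97) and the mitochondrially encoded *mt-Atp6* (0.97) and *mt-Nd5* (0.96). Between members, *Papss1* and *Papss2* correlated at 0.49 (0.60 after subtraction), and *Sult1a1* correlated with *Papss2* at -0.19 (-0.61 after subtraction). These values share library depth and size factor and are descriptions over 16 libraries.

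To place the 4 genes in their pathway, 5 lists were examined, of cytosolic sulfotransferases, genes of PAPS supply, transport and clearance, Golgi sulfotransferases, sulfatases and other monoamine conjugation enzymes. Of 120 listed symbols 61 had a row, and 57 remained without the 4 members. The lists were drawn up with earlier results of these data known. The DEX counts and adjusted p-values of their genes are therefore given as a description, and no enrichment is read from them. In the averaged DEX comparison 10 of the 57 (17.5%) were called by limma, 3 higher and 7 lower, against 4.31% of all genes. Their median log2 difference was 0.02, and that of all genes was -0.00256. Of all 14504 genes edgeR called 622 and DESeq2 called 904, and of the 57 edgeR called 10 and DESeq2 called 12. The count was 4 without dep2_dex_42 and 5 without dep1_sal_68.

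The monoamine conjugation list had 5 genes in the table and 0 called. *Hnmt*, the histamine methyltransferase, differed by 0.05 (95% interval -0.25 to 0.36). *Ugdh*, which makes the sugar donor for glucuronidation, differed by 0.06 (95% interval -0.07 to 0.20), and *Aanat*, the acetyltransferase of serotonin, was low (37.7 to 152 normalized counts) and differed by 0.27 (95% interval -0.20 to 0.74). Among the 3 sulfotransferases of the cytosol, *Sult2b1* lay between 111 and 255 in saline and between 123 and 166 in DEX libraries, with a difference of -0.27 (95% interval -0.65 to 0.11). *Aanat*, *Hnmt*, *Ugdh* and *Sult2b1* are given although they passed no test, to complete these short lists.

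Of the 12 other genes for PAPS supply, transport and clearance, 1 rose and 1 fell. *Tst*, which encodes the mitochondrial thiosulfate sulfurtransferase rhodanese, lay between 832 and 1331 normalized counts in saline libraries and between 502 and 727 in DEX libraries. The groups did not overlap, as for 0.51% of genes in this direction, and the averaged log2 difference was -0.73 (SE 0.11, adjusted p = 0.00134). *Tst* was also called in controls alone (-0.80, SE 0.18, adjusted p = 0.0583), a call lost without con_dex_101 (adjusted p = 0.211), con_dex_122 (0.327) or con_sal_104 (0.249), and in the fit of the control groups alone (0.266). *Csad*, which makes the taurine precursor hypotaurine, rose by 0.36 (SE 0.07, adjusted p = 0.0115), from 960 to 1235 in saline libraries to 1182 to 1637 in DEX libraries. Neither enzyme makes or uses PAPS. *Impad1*, which clears the phosphoadenosine phosphate left by sulfonation in the Golgi and was the most abundant of the list per kb (1657), differed by 0.06 (95% interval -0.11 to 0.24, adjusted p = 0.735).

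Of the 27 Golgi sulfotransferases, which act on glycans and proteins and not on monoamines, 1 rose and 5 fell in the averaged DEX comparison. *Hs3st3a1*, a heparan sulfate 3-O-sulfotransferase, lay between 137 and 274 normalized counts in saline libraries and between 300.4 and 404 in DEX libraries, without overlap. Its averaged difference was 0.87 (SE 0.14, adjusted p = 0.00167). It was called in PS mice as well (1.07, SE 0.24, adjusted p = 0.0896), but only 4 of 16 fits with a library left out kept that call, and without dep1_sal_68 the difference was 0.76.

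The falling genes included the related *Hs3st1* and *Hs3st5*. *Hs3st5* had an averaged log2 difference of -0.50 (SE 0.12, adjusted p = 0.0287) and *Hs3st1* of -0.49 (SE 0.13, adjusted p = 0.0749), the latter called in 6 of 16 fits with a library left out. *Chst8*, which sulfonates N-acetylgalactosamine on glycoprotein hormones, fell by 0.52 (SE 0.12, adjusted p = 0.0329). *Tpst1*, a tyrosylprotein sulfotransferase, fell by 0.30 (SE 0.07, adjusted p = 0.0220), and *Ust*, the uronyl 2-sulfotransferase, by 0.29 (SE 0.08, adjusted p = 0.0596), called in 9 of 16 such fits. *Hs6st2*, the most abundant of the list per kb (2000), differed by 0.02 (95% interval -0.15 to 0.19, adjusted p = 0.915).

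Of the 12 sulfatase genes, 1 rose and 1 fell. *Arsg*, a lysosomal sulfatase of heparan sulfate breakdown, lay between 1132 and 1519 normalized counts in saline libraries and between 872 and 1072 in DEX libraries, with no overlap and an averaged difference of -0.40 (SE 0.08, adjusted p = 0.00953). *Sulf2*, an extracellular heparan 6-O-endosulfatase, rose by 0.35 (SE 0.09, adjusted p = 0.0525), called in 11 of 16 fits with a library left out. *Ids*, the most abundant per kb (4722), differed by 0.12 (95% interval -0.11 to 0.35, adjusted p = 0.613). *Tst*, *Csad*, *Hs3st3a1* and *Arsg* were called in all 16 of those fits of the averaged DEX comparison.

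**Figure D4:**
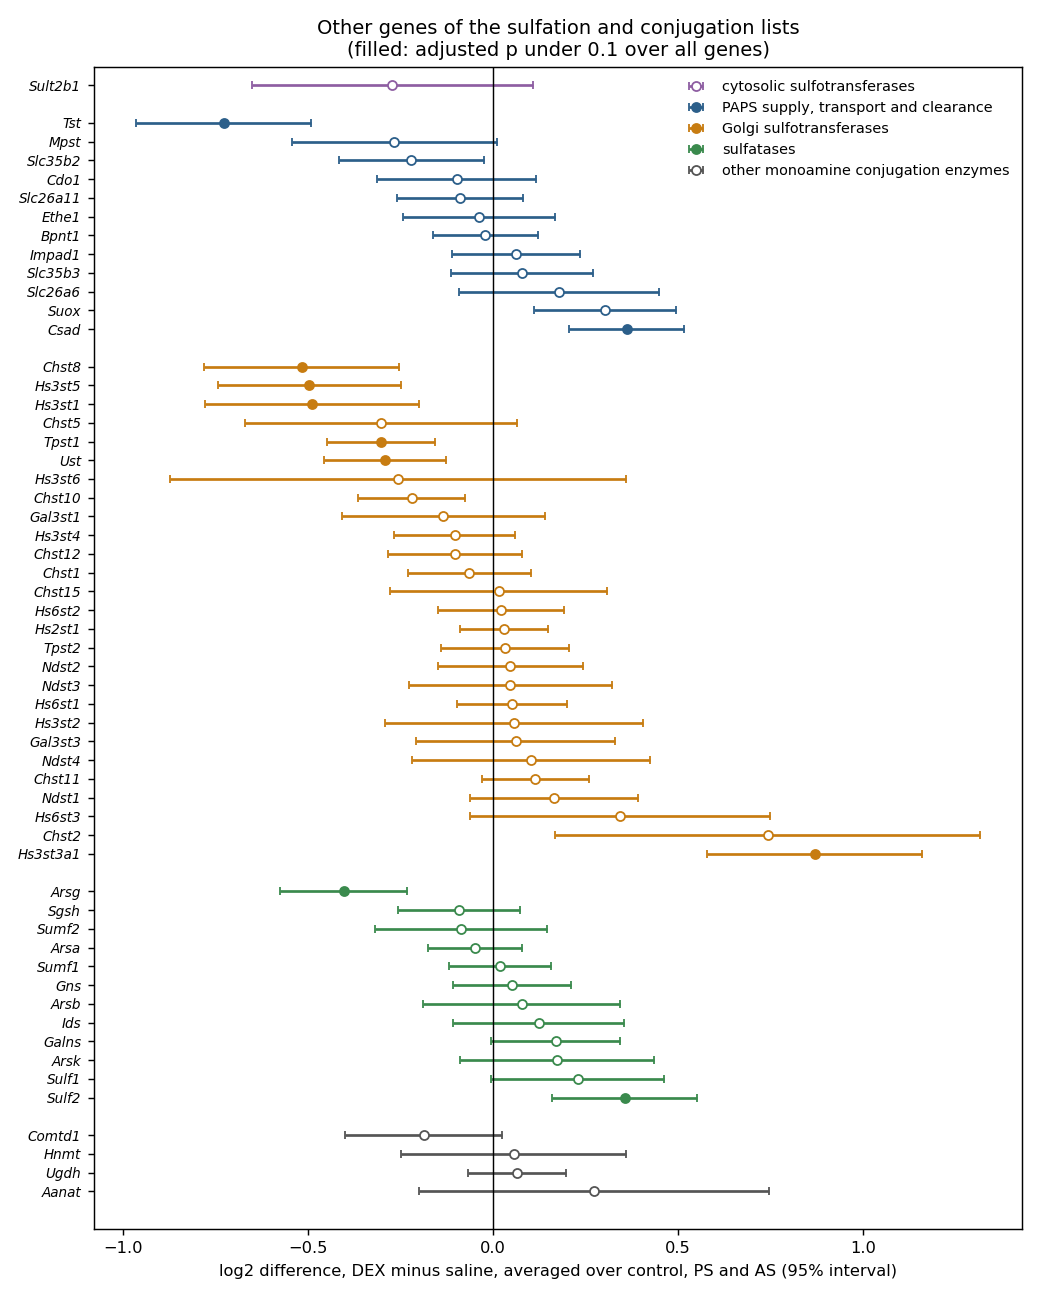
Log2 difference between DEX and saline, averaged over control, PS and AS mice, with 95% intervals for the other genes of the 5 lists, ordered within each list, with 1 listed gene not shown. Filled points (adjusted p under 0.1 over all genes) are 3 to the right of 0 and 7 to the left, led by *Hs3st3a1* at 0.87 and *Tst* at -0.73.

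Within single phenotypes, 1 of the 57 genes (1.75%) was called in controls (*Tst*), 1 in PS (*Hs3st3a1*) and 0 in AS, against 1.26%, 0.703% and 0.689% of all genes. edgeR called 1, 0 and 0 of the 57, and DESeq2 called 4, 1 and 2. In AS 11 of the 57 had an unadjusted limma p under 0.05, as did 9.36% of all genes. In the 3 saline comparisons between phenotypes, 0 of the 57 was called by limma, edgeR or DESeq2, and 2 (PS against control), 1 (AS against control) and 2 (AS against PS) had an unadjusted limma p under 0.05. The shares of all genes with such a p were 7.67%, 2.39% and 3.41%. Over all genes limma and edgeR called 0 in each of these saline comparisons, and DESeq2 called 4, 11 and 1.

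Some cell type markers were called in the averaged DEX comparison, in which 4.31% of all genes were called (403 higher and 222 lower). Of the 10 serotonin neuron markers 1 was lower in the averaged comparison (*Htr1a*), with summed levels of 324784 to 455740 in saline and 305571 to 447003 in DEX libraries. Of 8 oligodendrocyte markers 3 were lower in the averaged DEX comparison (*Opalin*, *Mog* and *Cnp*), with summed levels of 131646 to 216583 in saline and 129573 to 182059 in DEX libraries. Of 7 microglia markers 3 were lower (*Cx3cr1*, *P2ry12* and *Aif1*), with sums of 7337 to 11627 in saline and 6770 to 8217 in DEX libraries. Of 8 astrocyte markers 1 was higher (*Gjb6*), with sums of 33914 to 47829 and 32743 to 43758. Of 9 endothelial markers 1 was higher (*Slc2a1*) and 1 lower (*Tek*), with sums of 11146 to 16051 and 14334 to 16496. The 6 mural and fibroblast, 11 ependymal and 4 choroid plexus markers in the table had 0 called by limma in this comparison, with 2, 0 and 1 at an unadjusted p under 0.05 (14% of all genes). No sum of these cell type markers separated all 8 DEX from all 8 saline libraries, but some did so within a phenotype. In controls the endothelial sum was higher in DEX (16031 to 16496) than in saline libraries (11146 to 15674). The microglia sum was lower in DEX in PS (6770 to 7299 against 7337 to 7671) and in AS (6918 to 7667 against 7675 to 11627). In AS the mural and fibroblast sum was also lower in DEX (5080 to 5519 against 5867 to 7129). With 2 or 3 libraries per group such separations are frequent among single genes. All DEX libraries lay above all saline libraries for 8.51% of genes in controls, 11.2% in PS and 15.1% in AS. Shares for the lower direction in PS and AS are not given here, so nothing is read from these separations. The part of cell composition in the *Sult1a1* difference was not tested.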

How the data were processed

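PolyA RNA-seq of the DRN was analyzed in 16 libraries, grouped by their labels. Per the study's methods, the authors used fastp v0.20.1 for trimming, HISAT2 v2.2.1 for alignment to the mm10 (GRCm38) build, featureCounts with annotation vM22 for counting and DESeq2 v1.36.0 for normalization. The signal the authors deposited is normalized counts, that is gene counts divided by a size factor per library. Their tables of comparisons, which hold fold changes and p-values, were not used. In every library 100% of values were whole reads after rescaling (tolerance 0.05 reads), which gave depths of 38207157 to 62447298 reads.

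log2(normalized count + 1) was fitted in limma 3.58.1 (R 4.3.3) with a mean per group over all 16 libraries and eBayes with trend, on 10 residual degrees of freedom. The Benjamini-Hochberg method was applied to the p-values of each contrast over 14504 genes. A gene counted as called below an adjusted p of 0.1, as in the study. Fold changes on this scale understate those of low genes. Intervals are 95%. Alternatives were pseudocounts of 0.1 and 10, a mean of at least 100, TMM, quantile normalization, robust eBayes, library weights, only the groups compared, edgeR 4.0.16 and DESeq2 1.42.0 on recovered reads, and leaving out each library.

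Per-kb levels used merged exons of GENCODE vM21, in which 14493 genes (99.92%) had a length. The libraries of a group are biological replicates per the study's methods, and p-values measure the spread between them. The fit was tested on simulated data. The 4 members and the gene lists were chosen with earlier results of these data known. Named genes were the members, the genes of the 5 lists called in any comparison (15 at most), the most abundant of each list per kb, the 5 genes closest to *Sult1a1* and the 3 closest to each other member by Pearson correlation, over all libraries and after subtracting group means, and *Fkbp5* and *Tph2*. 1 gene that falls under this rule is not reported here. Genes named outside it (*Sgf29*, *Sult2b1*, *Aanat*, *Hnmt*, *Ugdh* and called markers) were chosen after their values were seen.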

Additional observations from a re-analysis of the deposited data

How the results depend on the processing

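No paired analysis was possible because the numbers in the titles differ between groups, so there is no replicate block. Of 53 results, 31 kept direction and side of the threshold under every alternative run. The DEX response of *Sult1a1* chose the gene, so its stability supports nothing. In AS its call was lost in the fit of only the groups compared (1.80), which has fewer libraries, and without dep2_dex_38 or dep2_dex_42, which leaves 1 AS DEX library. Over all fits with a library left out the difference ran from 1.56 to 2.08. Library weights turned the direction of uncalled differences, namely in saline *Papss1* AS minus control (0.019), *Sult4a1* AS minus PS (-0.066) and *Papss2* AS minus PS (0.30), in DEX *Sult1a1* PS minus control (0.087) and AS minus PS (-0.13), and in the DEX responses *Papss2* AS minus control (-0.25) and *Sult4a1* AS minus PS (0.081). The cause was not tested.

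With a library left out, the uncalled differences that changed sign ranged as follows. The *Papss2* DEX difference ran from -0.57 to 0.038 in controls, -0.051 to 0.20 in PS, -0.27 to 0.17 in AS and -0.18 to 0.020 on average, and that of *Papss1* from -0.020 to 0.083 in PS and -0.099 to 0.023 in AS. *Papss2* in saline ran from -0.21 to 0.39 (PS minus control), -0.28 to 0.33 (AS minus control) and -0.28 to 0.16 (AS minus PS), and *Sult4a1* AS minus PS from -0.045 to 0.17. In DEX, *Sult1a1* ran from -0.18 to 0.031 (AS minus control) and -0.073 to 0.14 (AS minus PS), *Sult4a1* AS minus PS from -0.036 to 0.11 and *Papss1* AS minus PS from -0.050 to 0.053. Differences of DEX responses ran from -0.025 to 0.20 (*Sult4a1*, AS minus control), -0.12 to 0.098 (*Sult4a1*, AS minus PS), -0.091 to 0.52 (*Papss2*, AS minus control) and -0.35 to 0.094 (*Papss2*, AS minus PS). The count of other listed genes called in the averaged DEX comparison ran from 4 to 11, with 5 without dep1_sal_68 and 4 without dep2_dex_42. *Sult1a1* rests on 69 to 206 reads per saline library, which limits the precision of its comparisons between saline groups.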
